A study of Mus musculus with 8 samples.

Results

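The 31 genes described here make cholesterol and fatty acids or control that synthesis. They were picked by symbol among the 17987 genes tested, each represented by its brightest probe, and comprise 17 enzymes of sterol synthesis, 8 enzymes of fatty acid synthesis and 6 regulators or carriers. Cytoplasmic RNA of mouse bone marrow macrophages was hybridised to 8 dual-colour microarrays. The groups were ERT2 Cre Thoc5 (flox/flox) cells with tamoxifen, the same genotype with no tamoxifen, ERT2 Cre control cells with tamoxifen, and ERT2 Cre control cells with no tamoxifen, with 2 arrays each. All groups had the C57BL/6 x B6:129 Ola background, the inducible Cre recombinase and CSF-1, a cytokine that turns bone marrow progenitors into macrophages. Each array set day 3 of differentiation against day 0 of the same genotype and biological experiment, and the 2 arrays of a genotype and experiment shared their day 0 RNA. Experiment 2 had the dyes inverted, so that experiment, slide and dye direction are 1 split. The promoter that drives Cre, the age of the mice and how many mice gave each RNA are not given in the sources used here. In these bulk samples, fewer cells that express a gene and less RNA per cell cannot be told apart.

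Cells build cholesterol from acetyl-CoA through mevalonate, isoprenoid diphosphates, squalene and lanosterol. The transcription factor SREBP-2, encoded by Srebf2, mainly drives the sterol enzymes, while SREBP-1, encoded by Srebf1, leans towards fatty acid genes. Both precursors are escorted by SCAP and held in the endoplasmic reticulum by INSIG proteins when sterols are plentiful, and in macrophages this feedback is balanced against cholesterol taken up from engulfed material. SREBPs often act on promoters together with NF-Y, a factor that binds the CCAAT box.

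The targeted gene, Thoc5, a subunit of the TREX complex of mRNA export, had log2 day 3 over day 0 ratios of -3.04 and -3.02 in flox cells with tamoxifen, against -0.74 and -0.77 in flox cells without it. The control arrays lay between -0.40 and -0.15, and the tamoxifen effect in flox cells was -2.27 ± 0.10 (SE, limma adjusted p = 0.000713). Across genes, the correlation between both arrays of a group was 0.92 for flox cells with tamoxifen, 0.93 for flox cells without, 0.88 for control cells with tamoxifen and 0.78 for control cells without. Between 52.0% and 58.6% of probes per array were well above background in the day 3 channel, and 0 spots were saturated. All 12 macrophage markers were well above background in day 3 RNA on all 8 arrays. All 13 neutrophil markers were too, and so were 4 of 9 probed erythroid and 2 of 9 probed B-cell markers. All 31 members passed the filter on dim probes, and 30 were well above background on all 8 arrays in both channels. The exception was Fasn, which was measured in day 3 RNA on 7 of 8 arrays.

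Promoters are shown first, since the results set sterol enzymes against fatty acid enzymes. RefSeq promoter windows (GRCm38.p6, 250 bases before to 50 after the start) were held for 24 of the 31 members. The members with no window in the table were Fdps, Fdft1, Sqle, Scd1, Scd2, Fads1 and Stard4. The windows were searched on both strands for CCAAT, the NF-Y box, for TCACNCCAC, the core of a sterol regulatory element, and for CACGTG, an E-box. CCAAT was present for 13 of 14 sterol enzymes (all but Acat2), for 2 of 5 fatty acid enzymes (Acly and Fasn) and for 4 of 5 regulators. Of all 32851 windows 37.4% hold it, as do 41.1% of the 27025 genes with a window. The sterol regulatory core was present for 1 member, Hmgcs1, against 1.24% of all windows and 1.44% of genes with a window. The E-box was present for Dhcr7, Hsd17b7, Sc5d, Insig1 and Scap, against 7.15% of all windows and 8.09% of genes with a window. A match is a run of letters and was not tested as a binding site. Printed below are the 180 bases before the start for the 3 sterol enzymes in the table that were called lower with tamoxifen in flox cells, and for Hmgcs1, which was not called. Capitals mark the 3 motifs, and ATTGG is CCAAT read on the other strand. The stretches are chr13:8885426-8885605 on the plus strand for Idi1, chr5:4104698-4104877 on the minus strand for Cyp51, chr1:169969206-169969385 on the minus strand for Hsd17b7, and chr13:119690171-119690350 on the plus strand for Hmgcs1.
Idi1: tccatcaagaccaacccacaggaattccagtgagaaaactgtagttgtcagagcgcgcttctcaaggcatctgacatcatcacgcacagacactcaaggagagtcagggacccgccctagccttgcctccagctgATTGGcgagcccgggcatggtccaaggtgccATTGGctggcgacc
Cyp51: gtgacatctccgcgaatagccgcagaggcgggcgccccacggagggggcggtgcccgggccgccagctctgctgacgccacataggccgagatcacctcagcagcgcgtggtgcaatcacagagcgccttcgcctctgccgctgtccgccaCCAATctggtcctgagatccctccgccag
Hsd17b7: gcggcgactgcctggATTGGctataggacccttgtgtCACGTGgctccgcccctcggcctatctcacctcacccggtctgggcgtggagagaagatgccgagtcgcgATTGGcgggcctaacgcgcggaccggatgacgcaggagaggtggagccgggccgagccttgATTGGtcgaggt
Hmgcs1: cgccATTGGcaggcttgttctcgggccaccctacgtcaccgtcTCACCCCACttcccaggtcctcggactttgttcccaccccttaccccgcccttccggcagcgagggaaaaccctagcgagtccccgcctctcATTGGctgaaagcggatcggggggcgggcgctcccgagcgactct
In Idi1 the NF-Y boxes begin at -45 and -14 relative to the start, and in Cyp51 the single one begins at -29. Hsd17b7 has NF-Y boxes at -165, -73 and -12 and an E-box at -143. In the Hmgcs1 stretch the NF-Y boxes at -176 and -45 flank the sterol regulatory core at -137. None of the Idi1, Cyp51 or Hsd17b7 windows holds TCACNCCAC, which says only that these letters are not in these windows.

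The comparison of flox cells with and without tamoxifen asks what the loss of Thoc5 together with tamoxifen and active Cre does to these genes at day 3. Of the 17 sterol enzymes, 5 were called lower with tamoxifen. Sqle, Idi1, Hsd17b7, Cyp51 and Fdps fell to between 1.71-fold and 2.10-fold below the level without tamoxifen. Fads2, a fatty acid desaturase, fell by 1.51-fold. Srebf2 was 1.90-fold higher on its brightest probe, but its other probe read lower. In all, 7 of 31 members were called (limma with Benjamini-Hochberg adjustment over 17987 genes, adjusted p under 0.05), 6 lower and 1 higher, where 9.03% of all genes tested were called, 4.16% lower and 4.87% higher.

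**Figure D1:**
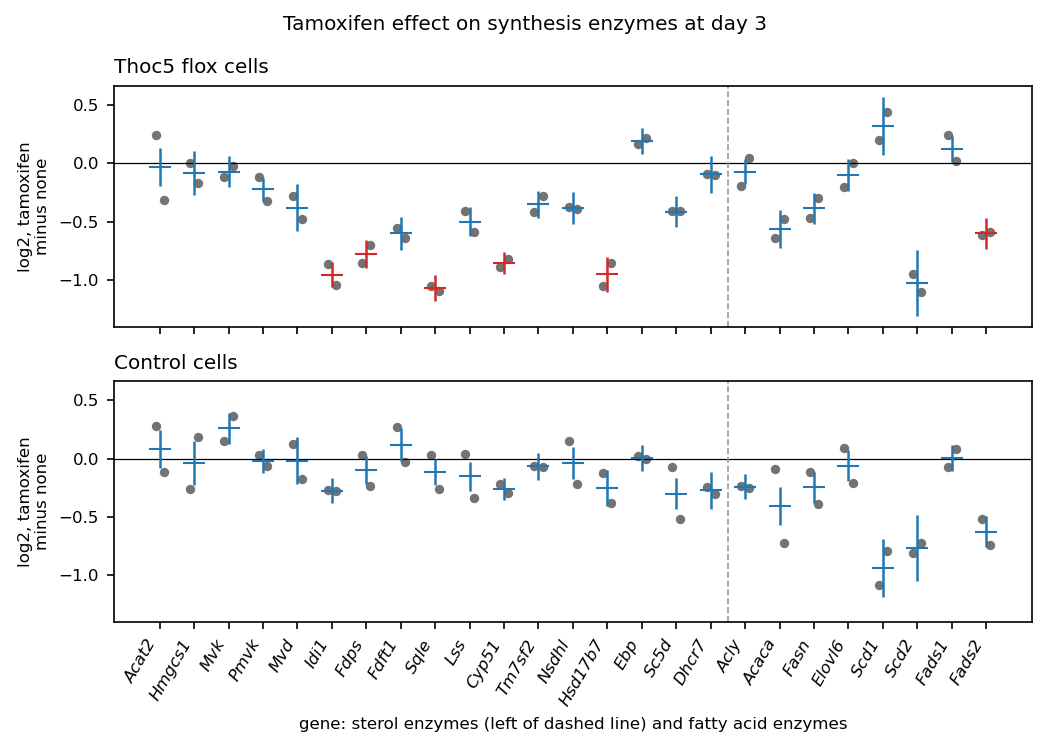
Tamoxifen minus no tamoxifen (log2) for 17 sterol enzymes in pathway order and 8 fatty acid enzymes, in flox cells (top) and control cells (bottom). Grey points are the 2 experiments, horizontal ticks with bars are the fitted value ± SE, and red marks genes called at an adjusted p under 0.05. In flox cells Idi1, Fdps, Sqle, Cyp51 and Hsd17b7 lie between -1.07 and -0.78, while in control cells they lie between -0.27 and -0.10. These 5 genes were picked by their call in flox cells. The difference between the 2 effects was called for 0 of 31 members.

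Sqle encodes squalene epoxidase, an oxygen-using and rate-limiting step of the pathway. Its log2 day 3 over day 0 ratios were -0.74 and -0.46 in flox cells with tamoxifen, against 0.31 and 0.63 in flox cells without it. Control cells had -0.14 and 0.13 with tamoxifen against -0.16 and 0.38 without. Both arrays of flox cells with tamoxifen lay below all 6 others. Sqle and the genes described next were picked by their call in flox cells, so a separation between the flox groups adds no support. The tamoxifen effect in flox cells was -1.07 ± 0.11 (SE, limma adjusted p = 0.00576), on a probe at chr15:59162688-59162747 (mm9).

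Idi1 encodes the isomerase that interconverts the isoprenoid building blocks. The ratios were -0.60 and -0.45 in flox cells with tamoxifen, against 0.26 and 0.59 in flox cells without, and -0.24 and 0.12 in control cells with tamoxifen against 0.03 and 0.40 in control cells without. Here too the flox cells with tamoxifen were below the other groups on both arrays. The effect was -0.95 ± 0.10 (limma adjusted p = 0.0064; probe at chr13:8891524-8891583, mm9).

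Fdps encodes farnesyl diphosphate synthase, which supplies the sterol branch as well as protein prenylation. Its ratios were -0.48 and -0.23 in flox cells with tamoxifen, against 0.37 and 0.47 in flox cells without, and 0.12 and -0.01 in control cells with tamoxifen against 0.09 and 0.21 in control cells without. The effect was -0.78 ± 0.12 (limma adjusted p = 0.0152, probe at chr3:88897549-88897608, mm9).

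Cyp51, the lanosterol demethylase, and Hsd17b7, a sterol ketone reductase of the following steps, were higher at day 3 in every group but flox cells with tamoxifen. Cyp51 had ratios of -0.42 and -0.16 in flox cells with tamoxifen, against 0.46 and 0.66 in flox cells without, and 0.40 and 0.62 in control cells with tamoxifen against 0.62 and 0.92 in control cells without. Hsd17b7 had ratios of -0.28 and -0.19 in flox cells with tamoxifen, against 0.77 and 0.66 in flox cells without, and 0.35 and 0.58 in control cells with tamoxifen against 0.47 and 0.95 in control cells without. For both genes flox cells with tamoxifen were the only group with ratios below 0 on both arrays. The tamoxifen effect in flox cells was -0.85 ± 0.10 for Cyp51 (limma adjusted p = 0.0064; probe at chr5:4081471-4081530, mm9). It was -0.95 ± 0.15 for Hsd17b7 (limma adjusted p = 0.0166; probe at chr1:171880203-171880262, mm9), and a second, dimmer Hsd17b7 probe gave -1.09 ± 0.26.

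The other 12 sterol enzymes were not called. Nearest to the threshold were Fdft1, squalene synthase, at -0.60 ± 0.14 on its brighter probe (limma adjusted p = 0.0532), and Lss, lanosterol synthase, at -0.50 ± 0.13 (limma adjusted p = 0.0597). The lone value above 0 was that of Ebp, a sterol isomerase, at 0.19 with a 95% interval of -0.08 to 0.46. Hmgcs1, the synthase that feeds mevalonate production, had -0.08 with an interval of -0.53 to 0.37, and Acat2, which joins acetyl-CoA units, had -0.03 with an interval of -0.42 to 0.36. Intervals of this width do not show that these genes stayed level. The remaining members of the class, Mvk, Pmvk, Mvd, Tm7sf2, Nsdhl, Sc5d and Dhcr7, lay between -0.41 and -0.07.

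By pathway step, a grouping made with the values known, the median effect was -0.06 for Acat2 and Hmgcs1, -0.38 for the 5 enzymes of mevalonate and isoprenoids, -0.60 for Fdft1, Sqle and Lss, and -0.38 for the 7 enzymes after lanosterol. The -0.60 is the value of Fdft1 on its brighter probe, while its dimmer probe gave 1.27 ± 0.27. The median over all 17 sterol enzymes was -0.38, against -0.01 over all genes tested. Of the 17, each on its brightest probe, 15 were lower in both experiments, where 38.3% of all genes were. In control cells 6 of the 17 were lower with tamoxifen in both experiments, where 23.4% of all genes were.

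The 8 fatty acid enzymes had a median effect of -0.24 in flox cells. Fads2 was the member called: its ratios were -1.24 and -1.35 in flox cells with tamoxifen, against -0.63 and -0.76 in flox cells without, and -0.82 and -1.35 in control cells with tamoxifen against -0.30 and -0.61 in control cells without. Fads2 read lower with tamoxifen in both genotypes but was called in flox cells alone. The effect was -0.60 ± 0.13 in flox cells (limma adjusted p = 0.0424, probe at chr19:10137760-10137819, mm9) and -0.63 ± 0.13 in control cells (limma adjusted p = 0.46). A dimmer Fads2 probe gave -0.32 ± 0.10 in flox cells. Acaca, the carboxylase that commits acetyl-CoA to fatty acids, had -0.56 ± 0.16 (limma adjusted p = 0.0857), and Fasn, the fatty acid synthase, had -0.39 ± 0.13 (limma adjusted p = 0.132). Acly and Elovl6 had -0.07 and -0.10, and Fads1 and Scd1 had 0.13 and 0.32.

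Scd2, a stearoyl-CoA desaturase, ranged widely between groups and experiments. Its ratios were 0.38 and -0.04 in flox cells with tamoxifen, against 1.33 and 1.06 in flox cells without, and 2.10 and 0.84 in control cells with tamoxifen against 2.91 and 1.56 in control cells without. The effect of tamoxifen was -1.02 ± 0.28 in flox cells (limma adjusted p = 0.0777) and -0.77 ± 0.28 in control cells (limma adjusted p = 0.854). Experiment 1 was above experiment 2 for this gene in every group.

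Among the regulators, Srebf2 was measured by 2 probes that disagreed. On the brighter one (chr15:82030068-82030127, mm9) the ratios were 1.55 and 1.29 in flox cells with tamoxifen, against 0.53 and 0.45 in flox cells without, and 0.63 and 0.84 in control cells with tamoxifen against 0.42 and 0.66 in control cells without. The effect there was 0.93 ± 0.15 (limma adjusted p = 0.0167). On the dimmer one (chr15:82034765-82034824, mm9) the ratios were -0.78 and -0.80 in flox cells with tamoxifen, against -0.60 and -0.33 in flox cells without, and the effect was -0.33 ± 0.13 (limma adjusted p over 22388 probes = 0.172). No single direction can be given for Srebf2, and with the mean of its probes the effect was 0.30 and not called. The other regulators, Srebf1, Scap, Insig1, Insig2 and the sterol carrier Stard4, were not called and lay between -0.53 and 0.07.

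**Figure D2:**
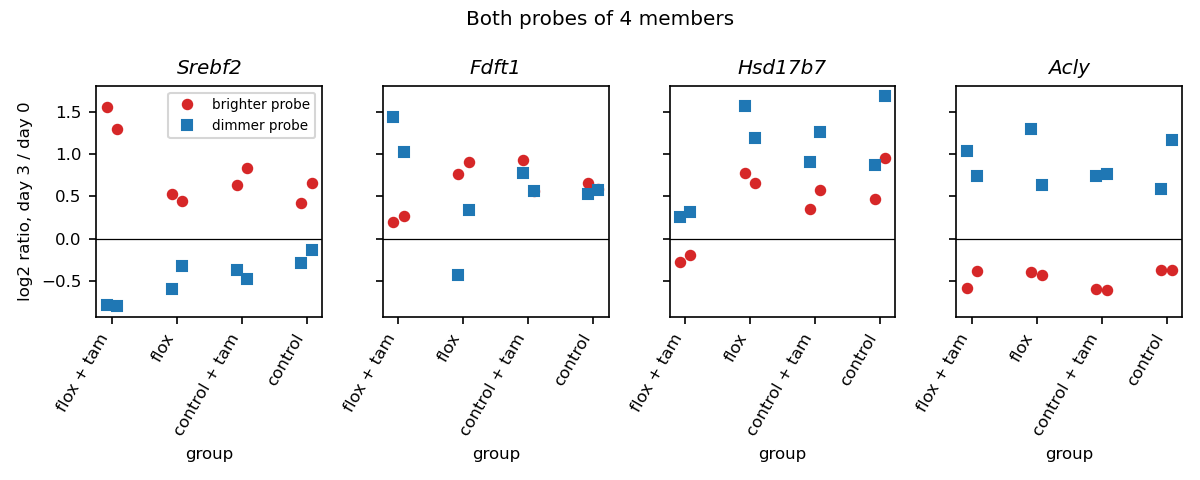
Log2 day 3 over day 0 ratios of both kept probes of Srebf2, Fdft1, Hsd17b7 and Acly, by group, with 1 point per array. The 2 probes of Hsd17b7 moved the same way with tamoxifen in flox cells, while those of Srebf2 (0.93 and -0.33) and Fdft1 (-0.60 and 1.27) moved opposite ways.

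In all, 12 members had more than 1 kept probe. Fdft1 was the other member whose probes went opposite ways by more than their errors: the brighter one gave -0.60 ± 0.14 and the dimmer one (chr14:63764562-63764621, mm9) gave 1.27 ± 0.27 (limma adjusted p over probes = 0.0379). The dimmer Fdft1 probe read 1.44 and 1.02 in flox cells with tamoxifen, against -0.43 and 0.34 in flox cells without. Which transcripts each probe reads was not tested. For Pmvk, Nsdhl, Tm7sf2, Acaca and Stard4 the probes shared a direction, below 0.

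The calls rest on few arrays. Without replicate 2 of flox cells with tamoxifen, or without either replicate of flox cells with no tamoxifen, 0 of 31 members were called, where 1.24% to 1.61% of all genes were. Without replicate 1 of flox cells with tamoxifen 3 members and 2.54% of all genes were called. The 6 lower members stayed below 0 under each omission, Sqle between -1.12 and -1.02.

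Other genes were read beside the members. Of 12 cell division genes 5 were lower with tamoxifen in flox cells, with a median of -0.41, whereas in control cells their median was 0.55 with 0 called. Of the 13 neutrophil markers 1 was higher in flox cells, with a median of 0.04, and of the 12 macrophage markers 2 were lower and 1 higher, with a median of -0.11. Of the measured B-cell markers 1 of 6 was lower and of the erythroid markers 0 of 5 were called. The part of cell division and of these cell types in the members' values was not tested. Of the 19 measured further synthesis enzymes and accessory proteins 1 was lower and 0 higher, with a median of -0.24. Of 10 measured genes of SREBP processing and sterol-regulated turnover 1 was called, the ubiquitin ligase Rnf145, at -0.62 ± 0.12 (limma adjusted p = 0.0286). Of 15 measured genes of sterol uptake, efflux and LXR signalling 3 were higher and 1 lower, with a median of 0.40. They included Npc2, a carrier of cholesterol in lysosomes, at 0.68 ± 0.12 (limma adjusted p = 0.0234), and Ch25h, a cholesterol hydroxylase, at -2.40 ± 0.49 (limma adjusted p = 0.0333).

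The same agent in control cells, where Cre has no floxed Thoc5 to remove, gave the sterol enzymes a median effect of -0.06 and the fatty acid enzymes one of -0.32, against 0.01 for all genes. No member was called, and neither was any other of the 17985 genes tested (0% called by limma), while 994 genes, or 5.53%, and 6 members, all lower, had an unadjusted p under 0.05. The median of the 6 regulators and carriers was -0.06. The values of the 5 sterol enzymes called in flox cells ran here from -0.27 for Idi1 to -0.10 for Fdps. Scd1, another stearoyl-CoA desaturase, had -0.94 ± 0.25 (limma adjusted p = 0.628), with -1.08 in experiment 1 and -0.79 in experiment 2. In flox cells Scd1 had 0.20 and 0.44, on the other side of 0 in both experiments.

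Whether the tamoxifen effect differed between the genotypes was tested as the difference of the 2 effects. No member passed (limma, 0 of 31 members), where 1.14% of 17985 genes were called, and 8 members had an unadjusted p under 0.05, 6 of them with the lower effect in flox cells, against 15.4% of all genes. The largest differences among the sterol enzymes were those of Sqle, at -0.95 ± 0.16 (limma adjusted p = 0.0558), Fdft1 on its brighter probe, at -0.72 ± 0.20 (limma adjusted p = 0.163), and Hsd17b7, at -0.70 ± 0.22 (limma adjusted p = 0.191). Idi1 had -0.68 ± 0.15 (limma adjusted p = 0.095), Fdps -0.68 ± 0.17 (limma adjusted p = 0.126) and Cyp51 -0.60 ± 0.13 (limma adjusted p = 0.101). The median difference was -0.34 for sterol enzymes and -0.01 for fatty acid enzymes, against -0.01 for all genes. Leaving out 1 array, it lay between -0.41 and -0.23 for sterol enzymes and between -0.18 and 0.13 for fatty acid enzymes. For Fads2 the difference was 0.03, with a 95% interval of -0.42 to 0.48, and for Scd1 it was 1.26 ± 0.35 (limma adjusted p = 0.159). A different response of the sterol enzymes in the 2 genotypes was therefore not called at this number of arrays. Of the 12 cell division genes 5 had a lower effect in flox cells, with a median difference of -0.99, and their part was not tested.

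**Figure D3:**
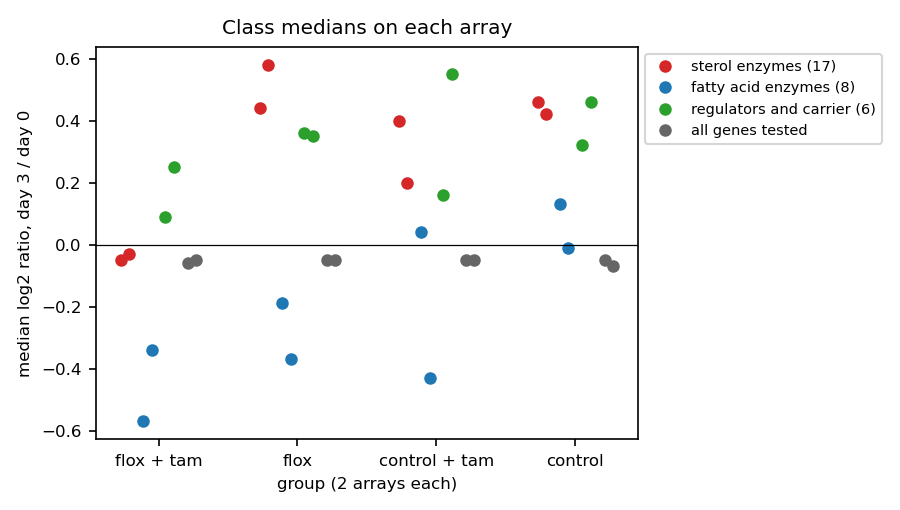
Median log2 day 3 over day 0 ratio of sterol enzymes, fatty acid enzymes, regulators with carrier, and all genes tested, by group, with 1 point per array. The sterol enzymes had medians of -0.05 and -0.03 in flox cells with tamoxifen, against 0.20 to 0.58 on the other 6 arrays.

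Flox cells with tamoxifen were also set against control cells with tamoxifen, which compares the genotypes under the same agent. Of the 31 members 9 were called by limma, 8 lower and 1 higher, where 11.3% of 17986 genes were called, 5.84% lower and 5.42% higher. The sterol enzymes Cyp51, Hsd17b7, Sqle, Tm7sf2 and Idi1 were between 1.39-fold and 1.74-fold lower in flox cells. Scd2 was 2.46-fold lower, Stard4, a sterol transfer protein, 1.66-fold lower and Insig1, the sterol-sensing retention factor, 1.34-fold lower. Srebf2 was 1.60-fold higher on its brighter probe. Its dimmer probe went the other way, with ratios of -0.78 and -0.80 in flox cells against -0.37 and -0.48 in control cells, both with tamoxifen. No single direction can be given for Srebf2 here either.

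Cyp51 had the smallest p, at -0.80 ± 0.10 (limma adjusted p = 0.00833), followed by Sqle, at -0.60 ± 0.11 (limma adjusted p = 0.0251). Stard4 had ratios of -0.38 and 0.08 in flox cells with tamoxifen against 0.26 and 0.90 in control cells with tamoxifen, and 0.36 and 0.39 in flox cells without against 0.55 and 0.88 in control cells without. Its genotype difference with tamoxifen was -0.73 ± 0.16 (limma adjusted p = 0.0346). Tm7sf2, a sterol reductase, had ratios of 0.60 and 0.52 in flox cells with tamoxifen against 1.29 and 0.89 in control cells with tamoxifen, and 1.02 and 0.80 in flox cells without against 1.34 and 0.97 in control cells without. Flox cells with tamoxifen held the lowest values of all groups for both genes, which were picked by their call in this comparison. The Tm7sf2 difference was -0.53 ± 0.12 (limma adjusted p = 0.038).

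Insig1 was higher at day 3 on all 8 arrays, with ratios of 0.78 and 0.91 in flox cells with tamoxifen against 1.17 and 1.36 in control cells with tamoxifen, and 0.99 and 1.07 in flox cells without against 1.29 and 1.56 in control cells without. The 4 flox arrays lay below the 4 control arrays. Arrays of a genotype and experiment share their day 0 RNA, which does not cancel between genotypes, so these are not 4 independent values per genotype. The Insig1 difference was -0.42 ± 0.10 with tamoxifen (limma adjusted p = 0.0478) and -0.39 ± 0.10 without (limma adjusted p = 0.0914). The Scd2 difference was -1.30 ± 0.28 with tamoxifen (limma adjusted p = 0.0367) and -1.04 ± 0.28 without (limma adjusted p = 0.103). The comparison with tamoxifen shares its flox arrays with the tamoxifen effect above.

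Median genotype differences with tamoxifen were -0.26 for sterol enzymes, -0.28 for fatty acid enzymes and -0.20 for regulators, against -0.01 for all genes (as log2). Of the 19 further synthesis enzymes and accessory proteins 2 were higher and 1 lower, with a median of -0.10. Among the genes of SREBP processing and turnover 1 was called, Mbtps2, a protease that releases SREBPs, which was higher at 0.62 ± 0.15 (limma adjusted p = 0.0467). Of the 13 neutrophil markers 4 were lower in flox cells, with a median of -0.25, and of the 12 cell division genes 2 were lower, with a median of -0.13. Of the 6 measured B-cell markers 3 were lower and 1 higher, with a median of -0.51, and of the 12 macrophage markers 3 were lower and 0 higher, with a median of -0.18. The part of these genes was not tested. The count of 9 members became 0 without any 1 of the 4 arrays compared (0% to 1.80% of all genes called) and 5 without either array of flox cells with no tamoxifen (8.63% called), and it was 0 in the fit without the experiment term (2.95% called).

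Without tamoxifen 0 of 31 members were called between flox and control cells by limma, where 2.85% of 17986 genes were, and 7 members had an unadjusted p under 0.05, against 23.1% of all genes. The sterol enzymes had a median of 0.03, with 10 of 17 above 0. The fatty acid enzymes had a median of -0.29, and 7 of 8 were lower in flox cells in both experiments, where 30.5% of all genes were. Scd1 had -0.93 ± 0.25 (limma adjusted p = 0.0974) and Fads1, a desaturase of polyunsaturated fatty acids, -0.47 ± 0.11 (limma adjusted p = 0.0763). Of the 12 cell division genes 9 were higher in flox cells, with a median of 0.91, and their part was not tested.

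At day 0 the genotypes were compared on 4 RNAs, each the mean of the 2 arrays that shared it. No member was called by limma, where 0.339% of 17987 genes were. The sterol enzymes had a median flox minus control difference of -0.18, the fatty acid enzymes of 0.03 and the regulators of -0.15, against -0.02 for all genes. Srebf1 had the difference with the smallest p, at -0.54 ± 0.12 (limma adjusted p = 0.211). Of the 13 neutrophil markers 4 were higher in flox RNA at day 0, with a median of 0.98. This difference enters every flox ratio through its denominator, though the shared day 0 RNA cancels in the tamoxifen effect within flox cells. Its part in the members' day 3 over day 0 ratios and genotype differences was not tested.

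The last comparison, day 3 against day 0 within each group, follows the members through differentiation under CSF-1. Tm7sf2, Sc5d, Pmvk, Insig1 and, on their brighter probes, Nsdhl and Srebf2 were called higher at day 3 in all 4 groups. The dimmer Srebf2 probe was below 0 on all 8 arrays, between -0.80 and -0.14, so the direction of Srebf2 depends on the probe. Scd2 was called higher in the 3 groups other than flox cells with tamoxifen. Elovl6 and, on its brighter probe, Fads2 were lower on all 8 arrays. In flox cells with tamoxifen limma called 8 of 31 members higher and 13 lower (58.9% of all genes called, 25.5% higher and 33.4% lower). In flox cells without it, 17 members were called higher and 6 lower (57.2% of genes called, 23.9% higher and 33.4% lower). For control cells the count was 15 higher and 6 lower with tamoxifen (57.7% of genes called, 23.9% higher and 33.8% lower) and 17 higher and 4 lower without (57.4% of genes called, 23.3% higher and 34.1% lower).

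**Figure D4:**
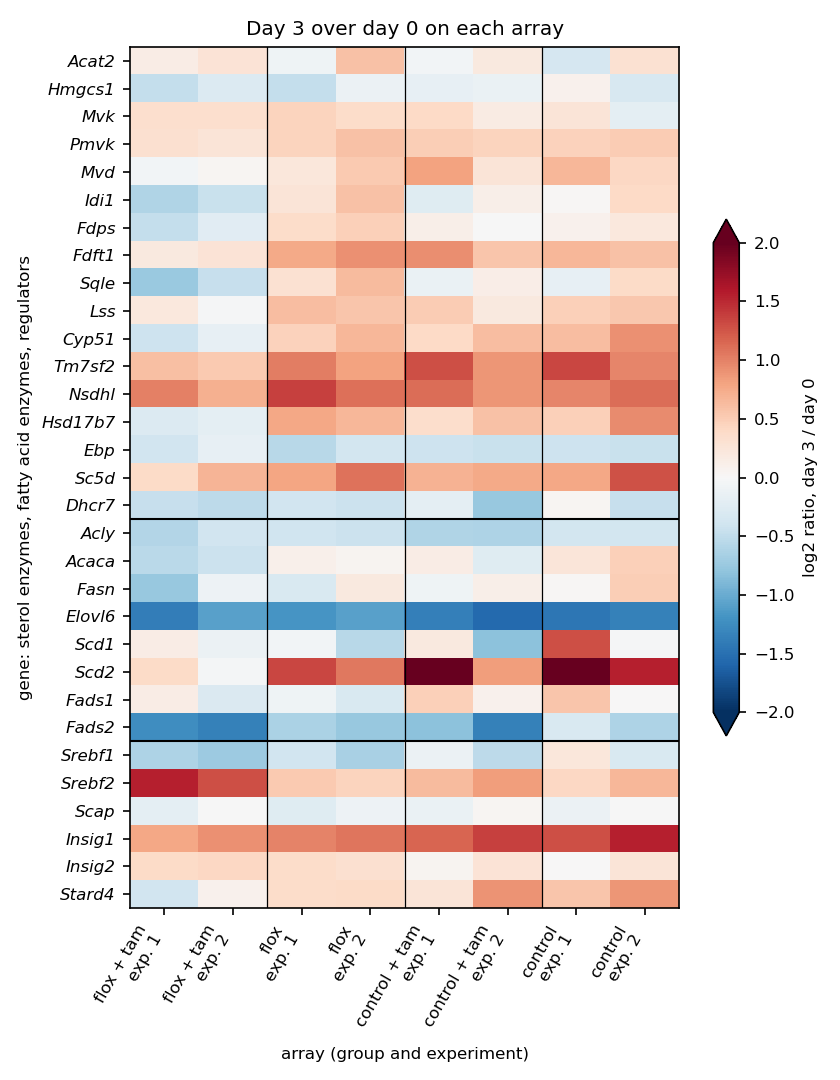
Heat map of the log2 day 3 over day 0 ratio of 31 members (rows, in 3 classes split by black lines) on 8 arrays (columns, by group and experiment). Red is higher and blue lower at day 3, and 2 cells of Scd2 exceed the colour scale. The sterol enzymes Idi1, Fdps, Sqle, Cyp51 and Hsd17b7 are blue in both columns of flox cells with tamoxifen.

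Of the 17 sterol enzymes, flox cells with tamoxifen had 5 called higher and 7 lower at day 3, and flox cells without it 12 higher and 2 lower. Control cells had 10 higher and 2 lower with tamoxifen and 10 higher and 1 lower without. Of all genes, 23.3% to 25.5% were called higher and 33.4% to 34.1% lower, by group. The median of the sterol enzymes was 0.00 in flox cells with tamoxifen, 0.47 in flox cells without, 0.35 in control cells with tamoxifen and 0.48 in control cells without. Nsdhl, a sterol dehydrogenase that takes part in removing methyl groups, had ratios of 1.00 and 0.71 in flox cells with tamoxifen, 1.37 and 1.10 in flox cells without, 1.12 and 0.89 in control cells with tamoxifen, and 0.97 and 1.11 in control cells without. Sc5d, a sterol desaturase, had ratios of 0.38 and 0.68 in flox cells with tamoxifen, 0.79 and 1.09 in flox cells without, 0.70 and 0.75 in control cells with tamoxifen, and 0.77 and 1.28 in control cells without. Both were called higher in every group, Nsdhl on its brighter probe. The Nsdhl values lay between 0.86 ± 0.10 (limma adjusted p = 0.000492) in flox cells with tamoxifen and 1.24 ± 0.10 (limma adjusted p = 0.000161) in flox cells without. The dimmer Nsdhl probe lay between -0.16 and 0.60, with 0.10 and -0.10 in flox cells with tamoxifen. Ebp was called lower in every group, between -0.46 and -0.27. Sqle was called lower in flox cells with tamoxifen, at -0.60 ± 0.08 (limma adjusted p = 0.000962), and higher in flox cells without, at 0.47 ± 0.08 (limma adjusted p = 0.00302). Idi1, Fdps and Cyp51 likewise were called lower with tamoxifen and higher without in flox cells, and Hsd17b7 had -0.24 ± 0.11 with tamoxifen (limma adjusted p = 0.102) and 0.72 ± 0.11 without (limma adjusted p = 0.00178).

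Of the 8 fatty acid enzymes, flox cells with tamoxifen had 0 called higher and 5 lower, and flox cells without it 1 higher and 3 lower. Control cells had 2 higher and 3 lower with tamoxifen and 4 higher and 3 lower without. By group, 23.3% to 25.5% of all genes were called higher and 33.4% to 34.1% lower. Elovl6, an elongase of long-chain fatty acids, had ratios of -1.38 and -1.09 in flox cells with tamoxifen, -1.18 and -1.09 in flox cells without, -1.36 and -1.56 in control cells with tamoxifen, and -1.45 and -1.35 in control cells without. It was lower at day 3 by a similar size in all groups, between -1.46 ± 0.10 (limma adjusted p = 0.000098) in control cells with tamoxifen and -1.13 ± 0.10 (limma adjusted p = 0.000209) in flox cells without. Acly, the citrate lyase that supplies acetyl-CoA, read -0.59 and -0.38 on its brighter probe in flox cells with tamoxifen, -0.40 and -0.43 in flox cells without, -0.60 and -0.61 in control cells with tamoxifen, and -0.37 and -0.37 in control cells without. Its dimmer probe, well above background in day 0 RNA on 1 of 8 arrays, lay above 0 on every array, so the direction of Acly depends on the probe. Fads2 was called lower in all 4 groups, between -1.30 ± 0.09 (limma adjusted p = 0.000106) in flox cells with tamoxifen and -0.46 ± 0.09 (limma adjusted p = 0.00645) in control cells without; its dimmer probe lay between -0.02 and 0.43.

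Among the regulators Insig1 was called higher in all groups, from 0.84 ± 0.07 (limma adjusted p = 0.000183) in flox cells with tamoxifen to 1.43 ± 0.07 (limma adjusted p = 0.000043) in control cells without. Srebf1 had ratios of -0.62 and -0.72 in flox cells with tamoxifen, -0.39 and -0.65 in flox cells without, -0.12 and -0.53 in control cells with tamoxifen, and 0.22 and -0.31 in control cells without. It was called lower in each group but control cells without tamoxifen, where it had -0.05 ± 0.09 (limma adjusted p = 0.679). Stard4 was called higher in the 3 groups other than flox cells with tamoxifen, where it had -0.15 ± 0.11 (limma adjusted p = 0.278). Scap, the escort protein of SREBPs, was called in 0 of the 4 groups and lay between -0.18 and -0.05. Neutrophil markers were lower at day 3 in all groups, 12 or 13 of 13 called, with medians between -3.60 and -3.44, and 11 or 12 of the 12 cell division genes were lower, with medians between -1.60 and -0.95. Of the 12 macrophage markers 8 were higher and 4 lower in flox cells with tamoxifen, and 7 higher and 2 lower in flox cells without. In control cells 8 were higher and 0 lower with tamoxifen, and 8 higher and 1 lower without. The part of these shifts in the members' ratios was not tested. Leaving out 1 array left at least 10 members called in flox cells with tamoxifen, 15 in flox cells without, and 13 in each group of control cells. In those fits 32.8% of all genes were called in flox cells with tamoxifen, 32.7% in flox cells without, 30.4% in control cells with tamoxifen and 40.4% in control cells without.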

How the data were processed

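Cytoplasmic RNA was read on 8 Agilent dual-colour arrays. Scanning and spot finding were the authors', with Agilent Feature Extraction (version 10.7.3.1, from the submitters' processing notes). Per the file headers, the spot tables give mean intensity and local background in both channels, with 0 or 1 flags. They also give Agilent's log10 ratio (red to green). In the deposited series matrix the log10 ratios run as day 3 to day 0 and match those of the arrays, turned for the dye swap, to within 5e-10. Each array has 44397 spots, 43020 of them not controls, for 39429 probes. The number of arrays limits the precision.

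Mean spot intensities were background-corrected with normexp (offset 50) and loess-normalized within arrays to log2 ratios with limma 3.58.1 in R 4.3.3 (data.table, version 1.17.8, and statmod 1.5.0). Ratios were turned to day 3 over day 0, outlier spots left out and spots of a probe averaged. Probes well above background in both arrays of a group in either channel were kept (22388), and the brightest probe stood for each gene. Symbols were updated through a RefSeq table for 26412 probes. Of 17987 genes, 68 lacked a value on at least 1 array, none of them a member.

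The limma fit was two-sided, with 3 residual and 3.46 prior degrees of freedom. It held the means of 4 groups plus the experiment as a term, the block that pairs arrays. The labels name each number a biological experiment. Deviations of same-numbered arrays correlated at 0.31 to 0.73 between groups. Same-numbered arrays also share the dye direction, and those of a genotype their day 0 RNA, so this correlation alone cannot show biological pairing. Day 0 RNA was compared in single channels after Aquantile normalization. In all 9 comparisons plus that of day 0, Benjamini-Hochberg adjustment ran over all genes. Values are log2 with SE. All members are named. Values per array are given for members called between tamoxifen and none in flox cells or between genotypes, and for the 3 of each class with the smallest p from day 0 to day 3. Up to 3 genes of a context list are named by the same measure, and a few that this selects are not reported here. Members and lists were chosen with earlier results of these data known. The method was tested on data simulated from the fitted means and variances with independent arrays. That simulation cannot show whether the calls hold for arrays that share day 0 RNA. Probe positions are mm9, those of the array design; no annotation of exons was used. Promoters are RefSeq's.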

Additional observations from a re-analysis of the deposited data

How the results depend on the processing

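With 2 arrays a group, calls moved with the processing more than values did. The arrays are paired by experiment, and with no replicate block (no experiment term) 3 members (2.61% of all genes) were called for tamoxifen in flox cells, against 7 (9.03%) with it, and 0 (2.95%) against 9 (11.3%) between genotypes with tamoxifen. The share of all genes called, given in brackets, moved too. For tamoxifen in flox cells the count was 12 (16.1%) with day 0 RNA as a random block, whose correlation was 0.325, 11 (13.4%) with the day 3 channel alone and 17 (25.5%) with the compared arrays alone, and 0 to 9 leaving out 1 array. Between genotypes with tamoxifen it was 3 (6.94%) with Agilent's log ratios, 5 (8.97%) with median centring, 15 (17.5%) with the day 3 channel alone, 5 (10.2%) with the compared arrays alone, and 0 to 9 leaving out 1 array. Between genotypes without tamoxifen, where 0 were called, median centring gave 2 (3.94%) and the day 3 channel 4 (10%). For the difference of tamoxifen effects, also 0, median centring gave 1 (2.10%), no filter on dim probes 1 (0.926%), the random block 4 (4.55%) and the day 3 channel 3 (3.41%). No other setting moved these counts by over 1.5 times. For day 3 against day 0, leaving out 1 array gave 10 to 22 members in flox cells with tamoxifen, 15 to 24 in flox cells without, 13 to 21 in control cells with tamoxifen and 13 to 21 without.

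The sterol median for tamoxifen in flox cells, -0.38, was -0.403 with Agilent's log ratios, -0.339 with median centring, -0.46 with scale normalization, -0.366 with the mean of all probes and -0.364 with the day 3 channel, and lay between -0.429 and -0.381 leaving out 1 array. The fatty acid median, -0.24, was -0.101 with the strict filter and between -0.388 and -0.101 leaving out 1 array. The sterol median of the difference, -0.34, was -0.27 with the mean of all probes and between -0.41 and -0.232 leaving out 1 array, while that of the fatty acid enzymes, -0.01, lay between -0.184 and 0.126 leaving out 1 array and was 0.131 with Agilent's log ratios. Acly turned to above 0 with the mean of its probes: 0.203 in flox cells with tamoxifen, 0.273 in flox cells without, 0.072 in control cells with tamoxifen and 0.253 without. No other called member changed direction in these settings. Except for Acly, where the second probe reads the opposite way, the cause was not tested. Of 126 refitted values of the 7 members called for tamoxifen in flox cells, 91 stayed called and 35 did not. Of 162 for the 9 called between genotypes with tamoxifen, 91 stayed called and 71 did not. The lone array of a group is assumed to vary like the others. Day 0 RNAs left out in turn, and single groups alone for day 3 against day 0, leave no residual degrees of freedom and gave no value.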

Other observations

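Genes that move cholesterol, rather than make it, were read from a list of uptake, efflux and LXR genes chosen with earlier results of these data known, of which 15 of 16 were measured. At day 3 limma called 9 of them higher and 3 lower in flox cells with tamoxifen (25.5% and 33.4% of all genes), and 8 higher and 2 lower in flox cells without it (23.9% and 33.4%). Control cells had 9 higher and 2 lower with tamoxifen (23.9% and 33.8%) and 8 higher and 3 lower without (23.3% and 34.1%). Their median tamoxifen effect was 0.40 in flox cells and -0.06 in control cells, and the median difference of the effects was 0.52, on the log2 scale, against -0.01 for all genes. The difference was called for 0 of the 15, where 1.14% of all genes were. The smallest p-values belonged to Abcg1, a cholesterol exporter, with 0.99 ± 0.28 (limma adjusted p = 0.166), Npc2, with 0.60 ± 0.17 (limma adjusted p = 0.172), and Mylip, a ubiquitin ligase induced by LXR, with 0.72 ± 0.21 (limma adjusted p = 0.18). The sterol enzymes had a median difference of -0.34 in the same fit. Members of both lists were measured on the same arrays, and no test was made between the lists.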
